A study of Mus musculus with 2 samples.

Results

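Igfbp5 encodes a secreted protein that binds insulin-like growth factors, and its UMI count differed widely from cell to cell in cultured gonadotropes. The cells compared here were those at the upper and lower end of that spread. In each library, Igfbp5 UMIs were divided by the UMIs of all other analysed genes in the same cell. The top quartile of cells was called Igfbp5-high and the bottom quartile Igfbp5-low. Only cells with at least 300 UMIs were ranked. The classes held 444 and 444 vehicle cells and 446 and 446 GnRH cells, which made 1780 of the 3554 cells with at least 300 UMIs, out of 3881 cells in all. The members were thus chosen by Igfbp5 itself, so its values below are a description. A class cut from a per-cell value is a range, not a cell type.

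The cells are LβT2, an immortalized line from mouse anterior pituitary that models gonadotropes, here at passage 15. Both groups are this line and were grown alike. One culture was treated with 2 nM GnRH for 40 min and the other with vehicle for the same time. Single-cell libraries were made by droplet capture with 3′ counting, 1 library per treatment. A unique molecular identifier (UMI) marks each captured transcript, so that amplified copies count once. The table analysed here held 1068 genes, of which the 1062 that could be placed lay on chromosome 1. Those genes summed to 1126320 UMIs in vehicle and 1118763 UMIs in GnRH. All levels are UMIs scaled to a common total of the analysed genes without Igfbp5 (CPM), and do not refer to the whole transcriptome. With 1 library per treatment no difference has a replicate check, no test was run, and the 95% intervals cover counting error only. Each comparison of classes was made within a library, and the value in each library is given.

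Gonadotropes are the pituitary cells that secrete luteinizing and follicle-stimulating hormone, and they respond to pulses of GnRH from the hypothalamus. Insulin-like growth factors act through a receptor tyrosine kinase that promotes growth and survival, and binding proteins such as Igfbp5 and Igfbp2 hold them in the medium or near the cell surface. GnRH switches on early genes within minutes, and Btg2, an antiproliferative gene, was the one with most UMIs among the genes analysed here. Of 8 gonadotrope markers, 3 were analysed, and all 3 were detected in both classes: Scg2, Inhbb and Inha. The fibroblast markers Col3a1 and Col5a2 had 0 UMIs in the classes of both libraries, and the leukocyte markers Cd28 and Cxcr4 had 0 and 1. Endothelial markers and markers of other pituitary cells were not analysed here.

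In the vehicle library the Igfbp5-high cells carried 6 to 149 Igfbp5 UMIs with a median of 15, and the Igfbp5-low cells 0 to 6 with a median of 1. In the GnRH library the ranges were 5 to 142 with a median of 15 and 0 to 4 with a median of 1. No Igfbp5 UMI was found in 83 Igfbp5-low vehicle cells (18.7%) and in 130 Igfbp5-low GnRH cells (29.1%). The high quartile held 55.9% of the Igfbp5 UMIs of the ranked vehicle cells and the low quartile 4.64%. The shares were 56.9% and 3.79% in GnRH. These shares follow in part from ranking the cells on Igfbp5, and 92.8% of all called vehicle cells and 91.2% of GnRH cells had at least 1 Igfbp5 UMI.

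**Figure D1:**
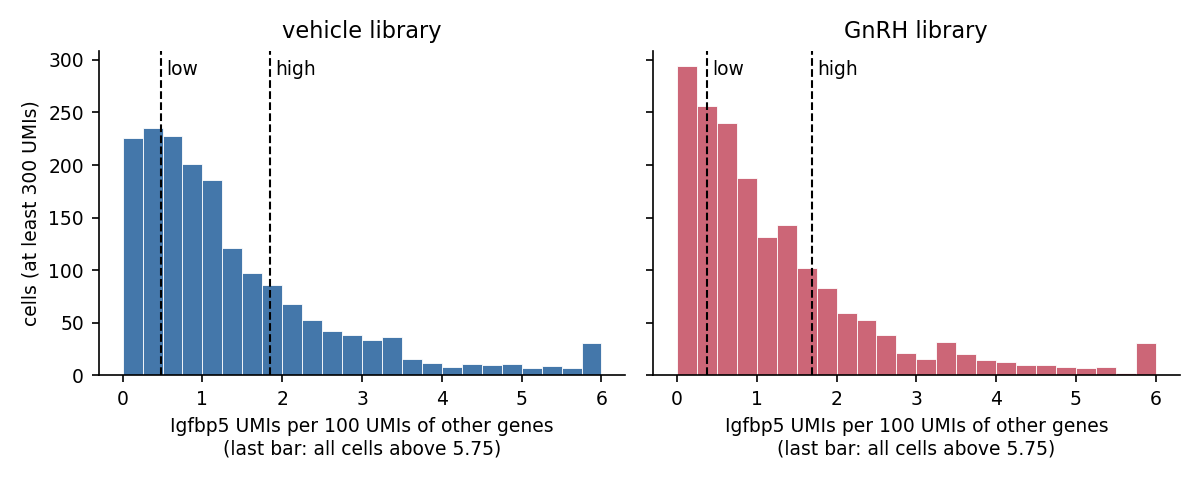
Igfbp5 UMIs per 100 UMIs of other genes (x axis) against the number of cells (y axis) in the vehicle and GnRH libraries. Bars are 0.25 wide, except that the last bar also holds all cells above 6 (26 in vehicle and 22 in GnRH). Dashed lines mark the limits of the low and high classes, at 0.482 and 1.85 in vehicle and at 0.381 and 1.69 in GnRH, and neither limit falls in a gap.

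The share of Igfbp5 ran without a break through both limits. The lowest Igfbp5-high vehicle cell had 1.85 Igfbp5 UMIs per 100 other UMIs and the next cell outside had 1.85 as well, while the low class ended at 0.482 and the next cell lay at 0.483. In GnRH the last cells inside and outside were at 1.69 and 1.69 for the high limit and at 0.381 and 0.381 for the low limit. Within 10% of a limit lay 132 vehicle and 137 GnRH cells at the high side and 107 and 72 at the low side. Over all called cells, Igfbp5 was at 13265 CPM (13054 to 13480) in vehicle and 12079 CPM (11877 to 12285) in GnRH with Igfbp5 in the total, and it ranked 11 and 12 among the analysed genes by UMIs. The variance of its UMI count over cells was 8.94 times the mean in vehicle and 8.85 times in GnRH. Set against Poisson counts with each cell's own depth, the variance was 3.96 and 4.42 times as large. Cells without Igfbp5 made up 7.18% of vehicle cells, where Poisson counts at each cell's depth give 1.24%, and 8.79% against 0.95% in GnRH.

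Depth differed slightly between the classes. Igfbp5-high cells had a median of 532.5 UMIs in vehicle and 524.5 in GnRH, and Igfbp5-low cells 593 and 592.5. The median number of detected genes was 156.5 against 165 and 152 against 163. The counts of genes and the class ratios of the 20 genes with the largest differences were also computed with classes ranked within bins of equal depth.

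Igfbp5 lies on chromosome 1 of GRCm38 at chr1:72857932-72874884 on the minus strand, and no other annotated gene overlaps it. Its promoter is shown because Igfbp5 defines the classes, and those of Ube2t, Hjurp, Bard1 and Sgol2a because these are the 4 genes of replication and mitosis that were at least 1.5-fold lower in Igfbp5-high cells. The letters are from RefSeq (GRCm38.p6), within 250 bases before the annotated start, 5′ to 3′ on the gene's own strand, and bases that GENCODE places inside the gene were left out. Capitals mark CCAAT on either strand. In Bard1 they mark TTTGAA instead. In Igfbp5 they mark TTTAAA. The stretches are chr1:72874885-72875115 (minus), chr1:134962315-134962564 (plus), chr1:88277634-88277829 (minus), chr1:71103147-71103222 (minus) and, for Sgol2a, which has 2 RefSeq starts, chr1:57985090-57985339 and chr1:57995724-57995970 (plus).
Igfbp5: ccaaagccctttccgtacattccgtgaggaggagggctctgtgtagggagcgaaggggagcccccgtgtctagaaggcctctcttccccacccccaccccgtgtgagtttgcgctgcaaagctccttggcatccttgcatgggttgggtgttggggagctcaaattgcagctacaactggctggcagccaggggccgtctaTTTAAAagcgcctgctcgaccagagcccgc
Ube2t: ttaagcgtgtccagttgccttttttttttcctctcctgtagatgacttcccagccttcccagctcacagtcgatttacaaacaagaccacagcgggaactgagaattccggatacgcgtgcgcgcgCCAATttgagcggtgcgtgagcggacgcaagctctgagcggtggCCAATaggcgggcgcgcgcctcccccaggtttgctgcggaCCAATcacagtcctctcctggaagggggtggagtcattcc
Hjurp: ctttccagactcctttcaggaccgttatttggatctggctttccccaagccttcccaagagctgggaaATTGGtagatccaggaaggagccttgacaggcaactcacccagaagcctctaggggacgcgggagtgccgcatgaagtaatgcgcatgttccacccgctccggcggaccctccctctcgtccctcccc
Bard1: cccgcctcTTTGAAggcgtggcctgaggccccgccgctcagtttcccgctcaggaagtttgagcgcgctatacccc
Sgol2a, upstream start: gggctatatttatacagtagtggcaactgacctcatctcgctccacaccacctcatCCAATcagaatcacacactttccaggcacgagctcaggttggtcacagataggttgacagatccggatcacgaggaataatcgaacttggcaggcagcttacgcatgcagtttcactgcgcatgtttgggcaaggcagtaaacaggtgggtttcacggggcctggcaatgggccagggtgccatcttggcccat
Sgol2a, downstream start: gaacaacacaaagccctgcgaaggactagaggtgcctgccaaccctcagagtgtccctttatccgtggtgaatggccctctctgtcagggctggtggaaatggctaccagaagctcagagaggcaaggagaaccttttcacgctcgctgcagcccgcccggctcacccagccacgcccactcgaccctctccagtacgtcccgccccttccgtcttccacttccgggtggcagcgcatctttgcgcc

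3 short motifs were searched in the 250 bases before each RefSeq start, on both strands. The first was CCAAT, which reads ATTGG on the other strand. The second was TTTGAA, which reads TTCAAA on the other strand. The third was TTTAAA, which reads the same on both strands. No matches overlap in the printed stretches. Promoters were found for 273 of the 329 genes compared. CCAAT stood in 11 of the 14 starts of the 12 matched replication and mitosis genes (78.6%), in 32.5% of the starts of all compared genes and in 33.8% of the 32851 promoters of the reference. TTTGAA stood in 3 of the same 14 starts (21.4%), against 11.4% of the starts of all compared genes and 16% of all promoters. TTTAAA stood in 2 of them (14.3%), against 10.5% and 12.1%. In the printed stretches, Ube2t had 3 CCAAT matches, Hjurp 1, the upstream start of Sgol2a 1, and its downstream start, Bard1 and Igfbp5 none. A match describes the letters only.

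The first question was which other genes differed between Igfbp5-high and Igfbp5-low cells in both libraries. The largest difference was in Akr1cl, an aldo-keto reductase, which was more than 5-fold lower in Igfbp5-high cells. Of 13 genes of replication and mitosis, 4 were at least 1.5-fold lower with it in both libraries. The transcription factor Klf7 was 1.71-fold higher in vehicle and 1.80-fold higher in GnRH. Of 329 genes with at least 100 UMIs in each library, 3 were at least 1.5-fold higher in Igfbp5-high cells in both libraries (0.912%) and 10 were at least 1.5-fold lower (3.04%). At a lower limit, a log2 ratio of 0.32 in size, the counts were 15 higher (4.56%) and 20 lower (6.08%).

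**Figure D2:**
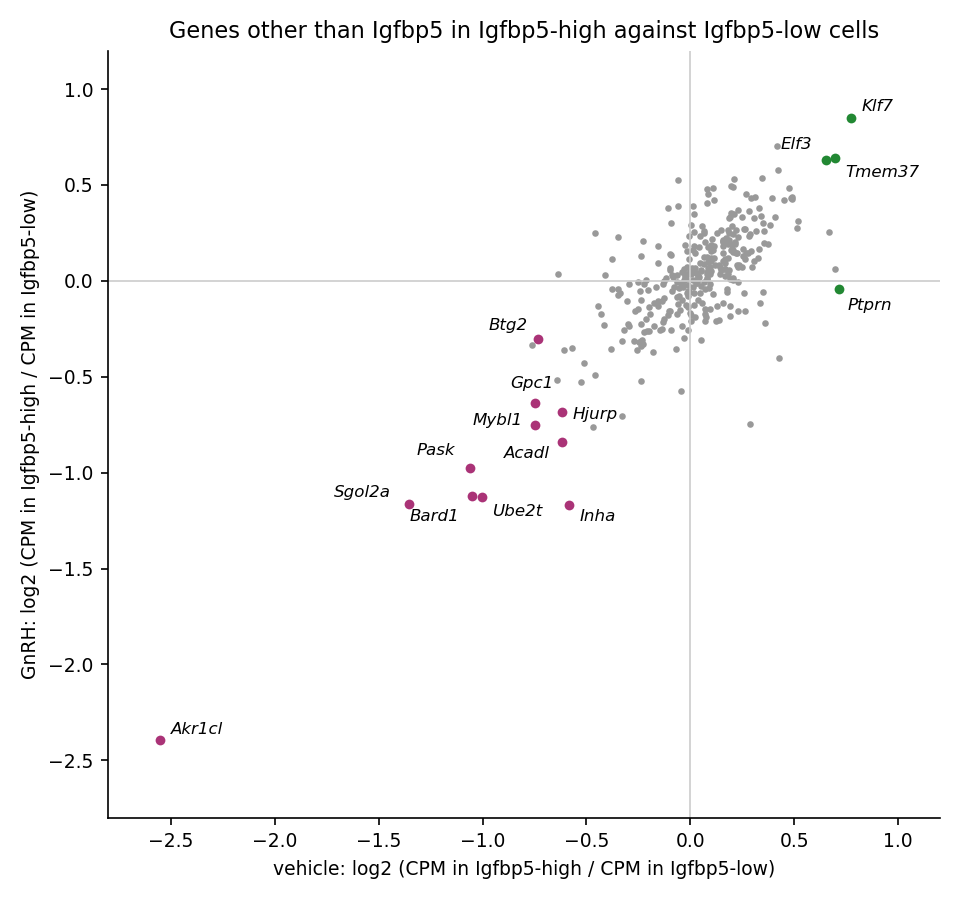
Log2 ratio of CPM in Igfbp5-high over Igfbp5-low cells for 329 genes, vehicle library (x axis) against GnRH library (y axis), 1 point per gene. Named genes lower in Igfbp5-high cells in vehicle are purple and those higher are green. Akr1cl stands apart at −2.55 and −2.39, and Klf7 is the highest in both.

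Most genes differed little. The median log2 ratio over the 329 genes was 0.05 in vehicle and 0.04 in GnRH, and 264 and 261 genes lay within 0.32 of 0. The direction was the same in both libraries for 252 genes (76.6%), and 1 gene lay past 0.32 in opposite directions. Across genes, the log2 ratios of the libraries had a Pearson r of 0.774, given as a description since genes are not replicates.

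Akr1cl had 60 UMIs in Igfbp5-high and 384 in Igfbp5-low vehicle cells, or 241 CPM (184 to 311) and 1412 CPM (1275 to 1561). In GnRH it had 53 and 308 UMIs, or 212 CPM (159 to 277) and 1112 CPM (991 to 1243). Its log2 ratio was −2.55 (−2.97 to −2.15) and −2.39 (−2.84 to −1.97). The classes were far outside each other's counting intervals in both libraries. After thinning every cell to 300 UMIs, 6.98% of Igfbp5-high and 17.6% of Igfbp5-low vehicle cells had an Akr1cl UMI, against 10.4% and 28.6% before thinning. In GnRH the thinned shares were 4.48% and 17.0%, against 9.87% and 26.0%. All cells are of 1 line, so no cell type here could serve as a background for free RNA. Akr1cl (chr1:65012689-65032759, minus) overlaps a pseudogene, so its reads may be shared.

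Most compared genes of DNA replication and mitosis were lower in Igfbp5-high cells in both libraries, several of them only slightly. Of 13 compared, 10 were lower in both libraries by any amount, against 30.4% of all genes, and none was higher in both, against 46.2%. By size, 4 were at least 1.5-fold lower in both, against 3.04% of all genes, and 5 were past the limit of −0.32, against 6.08%. Their median log2 ratio was −0.25 in vehicle and −0.22 in GnRH, beside 0.05 and 0.04 over all genes.

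Ube2t, a ubiquitin-conjugating enzyme of the Fanconi anemia repair pathway, had 401 UMIs in Igfbp5-high and 879 in Igfbp5-low vehicle cells, and 340 and 821 in GnRH. Its log2 ratios were −1.0 (−1.18 to −0.83) and −1.13 (−1.31 to −0.94). Sgol2a, a shugoshin that protects cohesin at centromeres, had 91 and 254 UMIs in vehicle and 91 and 225 in GnRH, with log2 ratios of −1.35 and −1.16. Bard1, the partner of the repair protein Brca1, had 84 and 190 UMIs in vehicle and 89 and 214 in GnRH, with log2 ratios of −1.05 and −1.12. All of these were about 2-fold or more lower, and the counting intervals of their classes did not overlap. Hjurp, which loads the centromeric histone Cenp-a, was more abundant and less different, with 1308 and 2195 UMIs in vehicle and 1076 and 1914 in GnRH. Its log2 ratios were −0.62 (−0.72 to −0.52) and −0.69 (−0.80 to −0.58). Nucks1, a chromatin protein of DNA repair, followed at −0.51 and −0.43. Mcm3 and Mcm6, subunits of the replicative helicase, were close to level at −0.14 and −0.10 and at −0.01 and −0.06. Cdk18, Ccnyl1 and Xrcc5 were higher in Igfbp5-high cells in vehicle and lower in GnRH. Cdk18 was at 571 against 449 CPM in vehicle and 479 against 498 CPM in GnRH. Ccnyl1 was at 217 against 169 CPM and 196 against 227 CPM.

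The share of cells with a UMI told the same at equal depth. Ube2t was found in 32.7% (28.3 to 37.2) of Igfbp5-high and 57.0% (52.2 to 61.6) of Igfbp5-low vehicle cells after thinning, against 50.5% and 78.8% before. In GnRH the thinned shares were 30.5% and 53.1%, against 48.0% and 74.7%. For Sgol2a they were 6.31% and 21.2% in vehicle and 8.07% and 18.6% in GnRH, against 14.2% and 36.3%, and 15.2% and 35.9%, before thinning. Sgol2a overlaps Kctd18 on the opposite strand and Bard1 overlaps a pseudogene, while Ube2t and Hjurp overlap no annotated gene.

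Other genes at least 1.5-fold lower in Igfbp5-high cells had separate known roles. Pask, a kinase of nutrient sensing, had log2 ratios of −1.06 and −0.98. Mybl1, a transcription factor of the Myb family, was at −0.75 in both libraries, and Gpc1, a cell surface heparan sulfate proteoglycan, at −0.75 and −0.64. Acadl, a mitochondrial dehydrogenase of fatty acid oxidation, was at −0.62 and −0.84. Pask overlaps Ppp1r7, and Gpc1 and Acadl overlap other annotated genes, so their counts are uncertain. Other named genes overlap annotated genes too, among them Elf3, Acsl3 and Ptprn, described below. Inha, the inhibin alpha subunit, completed the 10. It had 333 UMIs in Igfbp5-high and 546 in Igfbp5-low vehicle cells, and 324 and 804 in GnRH. Its log2 ratios were −0.59 (−0.79 to −0.39) and −1.17 (−1.36 to −0.98). The vehicle value sat at the 1.5-fold limit, and the GnRH difference was the larger. Inha and Hjurp were not past 1.5-fold in both libraries within depth bins, nor were Pask, Mybl1, Gpc1 and Acadl after thinning.

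Klf7, a Krüppel-like transcription factor, led the genes that were higher in Igfbp5-high cells. It had 1177 UMIs in Igfbp5-high and 752 in Igfbp5-low vehicle cells, or 4731 CPM (4465 to 5010) and 2766 CPM (2571 to 2971). In GnRH it had 1599 and 980 UMIs, or 6382 CPM (6073 to 6703) and 3538 CPM (3320 to 3767). The log2 ratios were 0.77 (0.64 to 0.91) and 0.85 (0.74 to 0.97). After thinning, 74.8% of Igfbp5-high and 51.4% of Igfbp5-low vehicle cells had a Klf7 UMI, and 81.2% and 60.3% in GnRH, against 89.4% and 73.2%, and 93.7% and 81.8%, before. Klf7 overlaps antisense and microRNA genes, so reads of those cannot be told apart where strand was not used.

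Tmem37, which encodes a membrane protein related to calcium channel subunits, had 172 and 116 UMIs in vehicle and 169 and 120 in GnRH. Its log2 ratios were 0.70 (0.35 to 1.05) and 0.64 (0.29 to 0.99). Elf3, an ETS transcription factor of epithelia, was at 0.65 (0.38 to 0.92) and 0.63 (0.36 to 0.91). Klf7, Tmem37 and Elf3 were the 3 genes past 1.5-fold in both libraries with the quartile classes. Tmem37 and Elf3 were not past it in both after thinning, with classes set within depth bins or with either other scaling. With a split at the median, none of the 3 was past it in both libraries. Klf7 was then at 0.54 in vehicle, short of 1.5-fold, and at 0.60 in GnRH, past it. The next in rank were Cryba2, a crystallin, Kcnb2, a voltage-gated potassium channel, Fev, an ETS factor known from serotonergic neurons, and Cdk5r2, an activator of the kinase Cdk5. They lay between 0.42 and 0.49 in both libraries, and the intervals of Cryba2 reached below 0 (−0.02 in both). Acsl3, a long-chain acyl-CoA synthetase, Ralb, a small GTPase, and Kdm5b, a histone demethylase, were at 0.42 and 0.58, 0.45 and 0.42, and 0.42 and 0.70.

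Igfbp2, the neighbour of Igfbp5 and a binding protein of the same family, was modestly higher in Igfbp5-high cells. It had 9167 and 8084 UMIs in vehicle and 9616 and 7857 in GnRH. The log2 ratios were 0.31 (0.27 to 0.35) and 0.44 (0.39 to 0.48). Igfbp2 and Igfbp5 lie 5.458 kb apart and do not overlap. Of 10 genes listed for the insulin-like growth factor axis, 2 besides Igfbp5 were analysed here, and Igfbp2 was the one with enough UMIs to be compared. The other, Irs1, an adaptor of insulin and growth factor receptors, had 17 and 21 UMIs in vehicle and 14 and 16 in GnRH.

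Secretory and gonadotrope genes did not move as a group. Scg2, which encodes the granule protein secretogranin II and was far more abundant than Inha, was slightly higher in Igfbp5-high cells, with 76101 and 65534 CPM in vehicle and 73883 and 64161 CPM in GnRH. Its log2 ratios were 0.22 (0.19 to 0.25) and 0.20 (0.17 to 0.23). Inhbb, the activin and inhibin beta B subunit, was at 0.13 and 0.25, and Inha was lower. Of 5 secretory genes compared, none was past the log2 limit of 0.32 upward in both libraries, against 4.56% of all genes, and 1 was past it downward, against 6.08%.

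The level in the 2 middle quartiles showed whether a difference ran through the whole range. Igfbp5 itself went from 2446 CPM in the low quartile through 7226 and 13476 to 32183 CPM in vehicle, as the choice of cells fixes. Akr1cl went from 1412 through 682 and 547 to 241 CPM in vehicle and from 1112 through 608 and 451 to 212 CPM in GnRH. Ube2t went from 3233 through 2654 and 2020 to 1612 CPM in vehicle and from 2964 through 2560 and 2011 to 1357 CPM in GnRH. Both were lower at each step. Klf7 ran the other way, from 2766 through 3283 and 4117 to 4731 CPM in vehicle and from 3538 through 4313 and 5571 to 6382 CPM in GnRH. Hjurp, Sgol2a, Bard1, Nucks1, Pask, Mybl1 and Acadl were also lower at each step in both libraries, and Igfbp2, Scg2 and Kcnb2 higher. Inha was ordered in GnRH alone, from 2903 through 2113 and 1816 to 1293 CPM, and in vehicle its lower quartiles were level at 2008 and 2044 CPM.

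**Figure D3:**
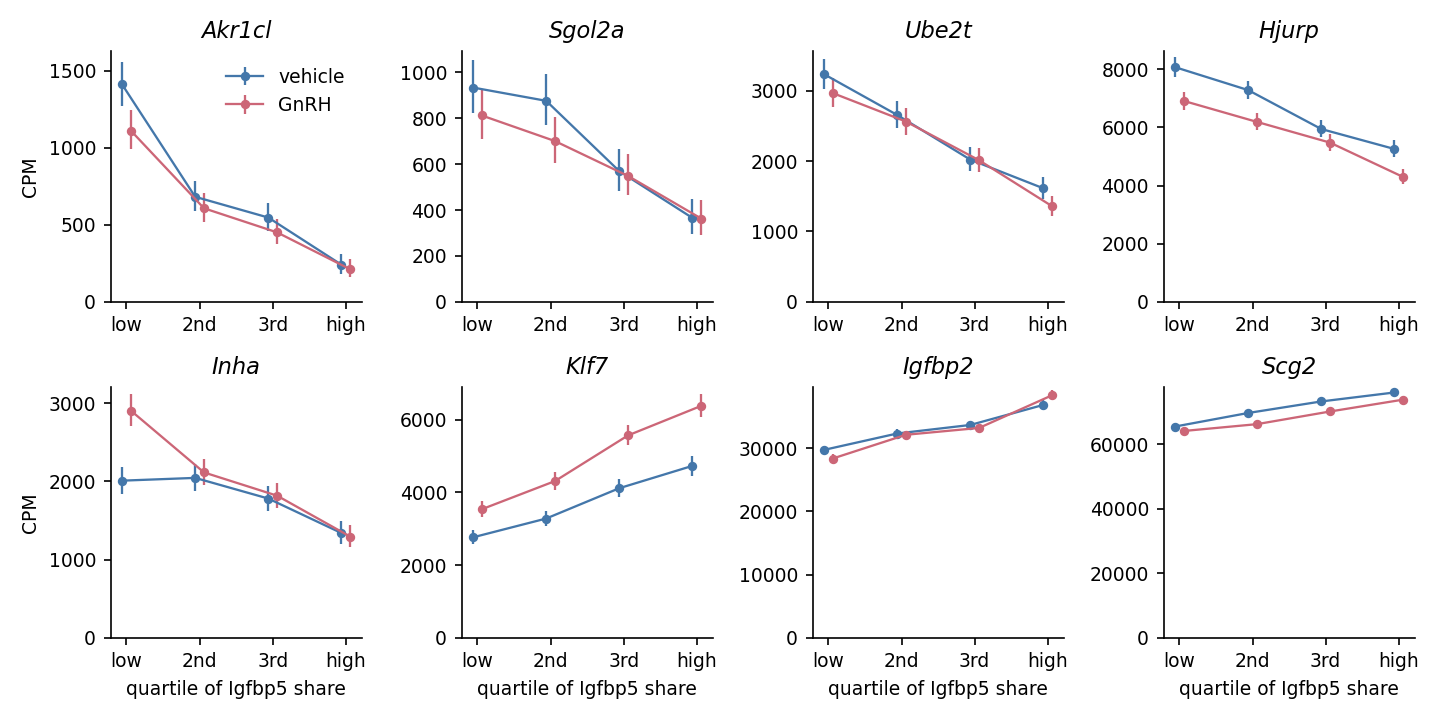
CPM of 8 genes (y axis, from 0) in the 4 quartiles of Igfbp5 share (x axis) in the vehicle (blue) and GnRH (red) libraries, with exact Poisson 95% intervals. Akr1cl, Sgol2a, Ube2t and Hjurp are lower in each higher quartile, Klf7, Igfbp2 and Scg2 are higher, and Inha is separated between libraries in the low quartile (2008 and 2903 CPM).

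The other lists held few large differences. For these lists, each count past 0.32 in both libraries stands beside 4.56% of all genes, and each past −0.32 beside 6.08%. None of 16 translation genes and none of 11 genes of mitochondrial respiration reached a log2 ratio of 0.32 in size in both libraries, with medians of 0.02 and −0.02, and 0.04 and 0.03. The ribosomal protein genes Rpl37a, Rpl31 and Rpl7 lay between −0.06 and 0.03, and Ncl was lower at −0.24 and −0.22. By any amount, 7 of the 16 translation genes were lower in both libraries, against 30.4% of all genes. The number higher in both was 5, against 46.2%. Of 11 chaperone and stress genes, 2 were past 0.32 in both, against 4.56% of all genes, and 7 were higher in both by any amount, against 46.2%. Of 11 metabolic genes, Acsl3 was the 1 past 0.32 in both libraries, and Akr1cl and Acadl were the 2 past −0.32. Among 4 matrix and adhesion genes, 2 were past −0.32 in both (6.08% of all genes), namely Gpc1 and Fn1, the fibronectin gene, at −0.57 and −0.35. Of 4 cell death regulators, Mdm4, a regulator of p53, was the 1 past −0.32 in both, at −0.38 and −0.36. Of 6 transcription regulators only Klf7 was past 0.32 in size in both libraries, and Hes6, a bHLH factor of the Hes family, was at 0.21 and 0.35. Of 7 neuronal genes, Kcnb2 was the 1 past 0.32 in both, and Cntnap5a, a neurexin-family gene of high count, was level at −0.06 and 0.03. Of 7 early GnRH genes, Bag2, a cochaperone, was the 1 past 0.32 in both libraries, at 0.34 in each, and 2810459M11Rik was the 1 past −0.32 in both, at −0.33 and −0.71. Of 4 genes of the activin axis, Inha was the 1 past the limit in both. Of 4 actin genes, none was past 0.32 in both libraries and 3 were higher in both by any amount, against 46.2% of all genes.

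**Figure D4:**
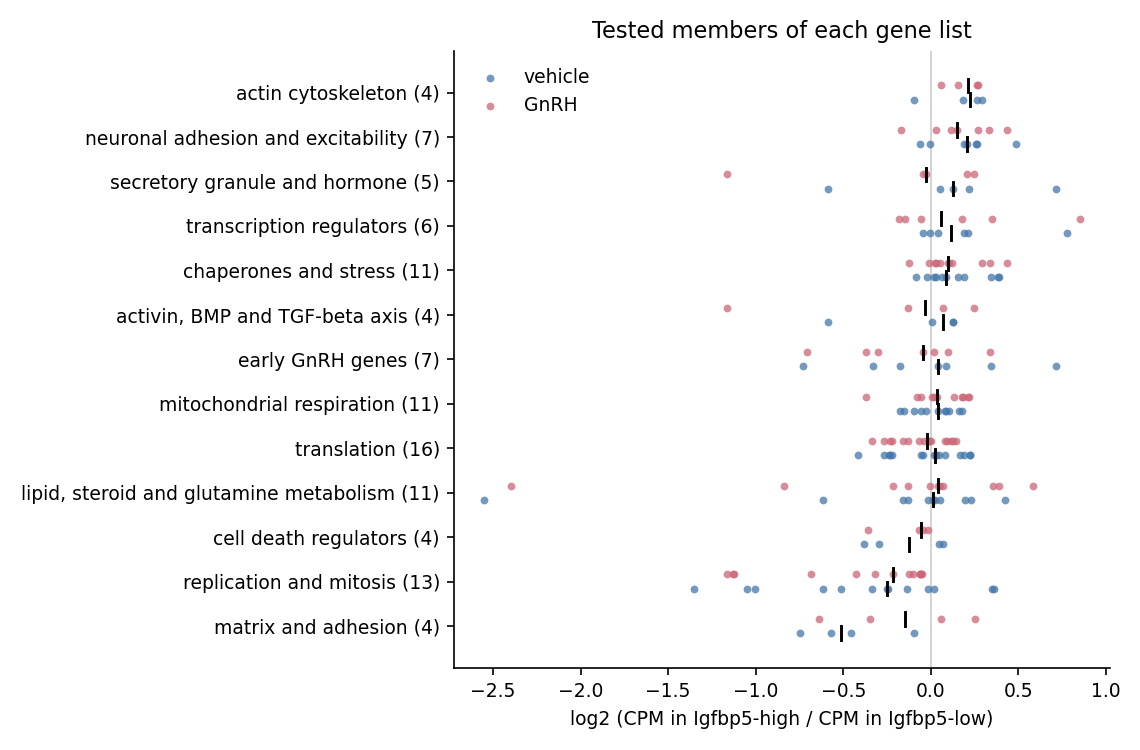
Log2 ratio of CPM in Igfbp5-high over Igfbp5-low cells (x axis) for each compared member of 13 gene lists (y axis, number of members in brackets), vehicle in blue and GnRH in red. Black bars are list medians. Replication and mitosis genes reach from −1.35 to 0.36 in vehicle with a median of −0.25. The medians of translation and respiration genes lie near 0, while single members of both lists lie further out.

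Of the replication and mitosis genes, 4 were at least 1.5-fold lower in Igfbp5-high cells in both libraries. The classes were therefore also set within tertiles of the summed share of the replication and mitosis genes, an alternative added after seeing the data. Klf7 remained at 0.68 and 0.65 and Akr1cl at −2.47 and −2.41. Inha was at −0.48 and −0.88, Tmem37 at 0.62 and 0.48, and Elf3 at 0.33 and 0.34. Ube2t, Sgol2a, Hjurp and Bard1 belong to the list whose summed share was stratified, and they were between −0.67 and −0.12. Mcm3 and Mcm6, subunits of the replicative helicase on the same list, turned from slightly lower to higher in Igfbp5-high cells, at 0.16 and 0.19 for Mcm3 and 0.28 and 0.24 for Mcm6. Igfbp2 was at 0.15 and 0.32, Scg2 at 0.11 and 0.10, and Btg2 at −0.23 and −0.41. Pask, which does not belong to it, was at −0.61 and −0.33. With this setting 1 gene was at least 1.5-fold higher in both libraries (Klf7) and 1 at least 1.5-fold lower (Akr1cl). The part of the cell cycle in the other differences was not tested further.

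The second question was whether Igfbp5-high and Igfbp5-low cells responded differently to GnRH. The early response was present in both classes. Of 332 genes compared in Igfbp5-high cells, 3 were at least 2-fold higher with GnRH (0.904%) and none at least 2-fold lower. Of 341 compared in Igfbp5-low cells, 4 were at least 2-fold higher (1.17%) and none lower. Btg2, Coq10b and Fhl2 passed in both classes, and Ptprn passed in Igfbp5-low cells. Ptprn passed in Igfbp5-high cells too with median-of-ratios or TMM scaling and within the tertiles. With the top and bottom deciles, Fhl2 was counted in neither class. To be counted, a gene also had to reach 100 UMIs over both libraries in the class. The decile counts of Fhl2 are not given here, so its loss does not show a smaller fold.

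Btg2 had 158 UMIs in Igfbp5-high vehicle cells and 6908 in Igfbp5-high GnRH cells. In Igfbp5-low cells it had 287 and 9407 UMIs. The log2 ratio of GnRH over vehicle was 5.44 in Igfbp5-high and 5.01 in Igfbp5-low cells, a difference of 0.43 (0.14 to 0.72). The larger ratio in Igfbp5-high cells came with lower levels in both libraries. Vehicle levels were 635 CPM (540 to 742) in Igfbp5-high against 1056 CPM (937 to 1185) in Igfbp5-low cells, and GnRH levels 27572 (26926 to 28230) against 33965 (33282 to 34659). Within tertiles of the replication and mitosis genes the difference turned to −0.18, so its direction depends on how the classes are set.

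Per cell, Btg2 after GnRH ranged from 0 to 70 UMIs with a median of 12 in Igfbp5-high cells and from 0 to 128 with a median of 19 in Igfbp5-low cells. The thinned medians were 6 and 9. At most 2 Btg2 UMIs were found in 77 Igfbp5-high GnRH cells, or 17.3% (13.9 to 21.1), and in 31 Igfbp5-low GnRH cells, or 6.95% (4.77 to 9.72). In vehicle 98.6% and 93.2% of cells were at or below 2 UMIs. Most cells of both classes thus carried more Btg2 with GnRH than vehicle cells did, and low Btg2 counts were more frequent in Igfbp5-high cells.

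Coq10b, a coenzyme Q binding protein, had 144 and 686 UMIs in Igfbp5-high and 178 and 980 in Igfbp5-low cells. Its log2 ratios were 2.24 and 2.43, and their difference of −0.19 (−0.55 to 0.17) was within counting error. Fhl2, a LIM domain cofactor, had 42 and 182 UMIs in Igfbp5-high and 46 and 178 in Igfbp5-low cells, and its ratios of 2.11 and 1.93 also differed by less than counting error (0.18, −0.53 to 0.89). Bag2 was at 0.76 in both classes, and Ppp1r15b, a subunit of the phosphatase that acts on eIF2α, at 0.64 and 0.62. For Fhl2 a difference of the size seen for Btg2 was not detectable at this depth.

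Ptprn, a protein of dense-core granule membranes, had the largest difference of the genes that were at least 2-fold higher with GnRH in either class. It had 254 UMIs in vehicle and 487 in GnRH in Igfbp5-high cells, and 169 and 555 in Igfbp5-low cells. The log2 ratios were 0.93 and 1.69, a difference of −0.76 (−1.10 to −0.42). The classes differed in vehicle, at 1021 and 621 CPM, and not beyond counting error in GnRH, at 1944 and 2004 CPM. Inha was level with GnRH in Igfbp5-high cells (333 and 324 UMIs, log2 −0.05) and higher in Igfbp5-low cells (546 and 804 UMIs, log2 0.53), a difference of −0.58 (−0.86 to −0.30). Thinning every cell to 300 UMIs and setting the classes anew brought these differences to −0.40 for Ptprn and −0.23 for Inha, those of Btg2 and Coq10b to 0.65 and −0.33, and that of Fhl2 from 0.18 to −0.13. With deciles in place of quartiles the difference of Ptprn was −1.24. Neurl3, a ubiquitin ligase, had only 6 and 15 UMIs in Igfbp5-high and 2 and 35 in Igfbp5-low cells, too few to be compared by fold.

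**Figure D5:**
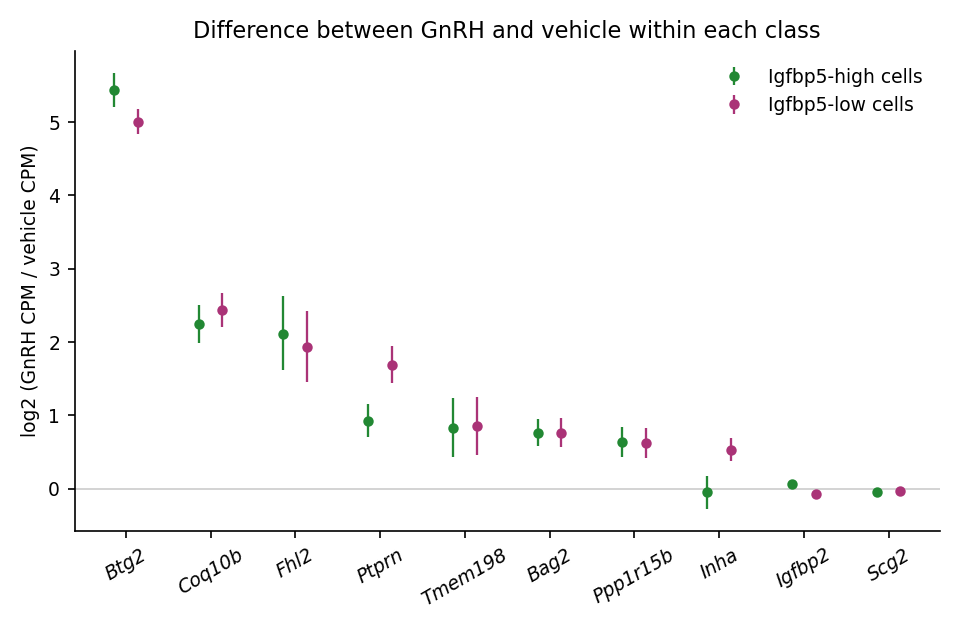
Log2 ratio of GnRH over vehicle CPM (y axis) in Igfbp5-high (green) and Igfbp5-low (purple) cells for 10 genes (x axis), with exact conditional 95% intervals. Btg2 lies at 5.44 and 5.01, Coq10b, Fhl2, Tmem198, Bag2 and Ppp1r15b overlap between classes, and Ptprn and Inha are lower in Igfbp5-high cells.

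Over the 326 genes compared in both classes, the median difference between the log2 GnRH ratios was −0.0033, and 6 genes differed by more than 1.5-fold. The classes and the treatments share the same libraries, so a difference in the GnRH ratio between classes and a difference in the class ratio between libraries are the same number. Because each treatment had 1 library, a difference between cultures or captures and an effect of GnRH cannot be told apart.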

How the data were processed

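The authors ran Cell Ranger (version 1.3, mm10) to count UMIs, per the submitters' processing notes. The annotation and the use of strand are not given in the sources used here. The deposited values are raw UMI counts, whole numbers for called cells, and column names gave each cell's treatment. The table analysed here held the first 1068 complete genes of 27998 listed (3.81%), and 1 incomplete row was left out. Columns carry no barcode, so barcodes shared between libraries could not be counted. No doublet caller was run, and leaving out the 5% of cells with most UMIs was an alternative.

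Cells under 300 UMIs were left out, 219 in vehicle and 108 in GnRH. Quartiles of Igfbp5 UMIs over the UMIs of all other genes were taken within each library, and UMIs were summed per class. Levels are CPM over the analysed genes without Igfbp5. Sums have exact Poisson intervals, shares of cells exact binomial (Clopper-Pearson) intervals, ratios exact conditional binomial intervals, and ratios of ratios the exact conditional odds ratio interval, all at 95%. Where neither sum was above 3, no ratio is given. Genes were compared with at least 100 UMIs in each library over both classes, or, for GnRH within a class, over both libraries. With 1 library per treatment no test was possible. The interval code was tested on simulated data.

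Named genes were the 10 with the largest difference in each direction, the same way in both libraries and ranked on the smaller log2 ratio, the members with most UMIs (up to 4) of 19 gene lists, genes at least 2-fold different with GnRH in either class, and Igfbp5, Igfbp2, Akr1cl, Scg2, Cntnap5a, Inha, Hjurp, Fn1, Btg2, Coq10b, Neurl3, Fhl2 and Ptprn. The result of 1 gene is not reported here. List members named outside this rule were chosen after their values were seen. The classes, genes and lists were chosen with earlier results of these data known. Of 244 listed genes 148 were analysed. Positions are from GENCODE M21 and promoters from RefSeq. Python 3.11.15, NumPy 2.4.6, SciPy 1.17.1, matplotlib 3.10.9, R 4.3.3 and edgeR 4.0.16 (for TMM factors only) were used. Alternatives were other class limits, thinning to 300 UMIs, depth bins, other cell and gene minimums, other scalings and other fold limits. After seeing the data, classes within tertiles of the replication and mitosis genes, cells without Akr1cl, cells without the highest 5% of Igfbp5 share, and totals without Btg2 were added.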

Additional observations from a re-analysis of the deposited data

Results flagged for a closer look

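With 1 library per treatment, differences in the GnRH response between classes were not tested over replicates. Listed here are named genes whose counting interval of that difference did not include 0, each as the log2 ratio of GnRH over vehicle in Igfbp5-high minus that in Igfbp5-low cells. By counting error alone, about 1 in 20 such intervals would miss 0. The genes examined were the named genes whose 136 class ratios, 1 per gene and library, are counted in the next section. The values were 0.43 for Btg2, −0.76 for Ptprn and −0.58 for Inha, described above. Igfbp2 was at 0.13, with a ratio of 0.06 in Igfbp5-high and −0.07 in Igfbp5-low cells. Cntnap5a, Hes6, Kdm5b and Creb1 were at 0.094, 0.14, 0.28 and −0.37. Neurl3 was at −2.79, from 6, 15, 2 and 35 UMIs, which are too few for a firm value.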

How the results depend on the processing

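The 20 genes with the largest differences kept their direction in both libraries under the 14 alternatives that gave them a value. How many genes passed 1.5-fold depended on the setting. In place of 3 genes higher in Igfbp5-high cells, there were 8 with the top and bottom deciles, 6 with at least 20 UMIs per gene, 22 with at least 1 UMI, 15 at a log2 limit of 0.32 and 0 at 2-fold. With a split at the median there were 2, Aox3 and Rab7b, and none of the original 3. Aox3 and Rab7b also passed with the quartile classes when the minimum was 20 UMIs per gene. There was 1, Klf7, after thinning, within depth bins, with median-of-ratios or TMM scaling and, as alternatives added after seeing the data, within tertiles of the replication and mitosis genes, in cells without Akr1cl, and without the 5% of cells with highest Igfbp5 share. In place of 10 genes lower there were 4 with a split at the median, 6 after thinning, 21 with at least 1 UMI, 20 at 0.32, 4 at 2-fold and 1 within the tertiles. Genes at least 2-fold higher with GnRH numbered 6 and 7 (high and low class) with at least 20 UMIs and 10 and 15 with at least 1 UMI, in place of 3 and 4. The log2 ratio of Btg2 was 5.19 with the median split and 5.09 within the tertiles in Igfbp5-high cells, and 5.26 with deciles and 5.27 within the tertiles in Igfbp5-low cells. Their difference turned to −0.18 within the tertiles, and the cause was not tested. Of 136 class ratios of named genes, 44 (28 genes) changed sign under at least 1 alternative, and these were at most 0.35 in size as reported. Among those whose counting interval excluded 0 or that passed 1.5-fold, the sign turned for Fn1 in GnRH (0.0034) and Mcm3 in vehicle (0.0056) with the median split, for Mcm3 in vehicle within the tertiles (0.16) and for Rpl31 in vehicle after thinning (0.0012). Among the others, Mcm3 in GnRH (0.19) and Mcm6 in vehicle and GnRH (0.28 and 0.24) turned within the tertiles, Fhl2 in GnRH (−0.18) with deciles, Coq10b in vehicle (0.055) after thinning and Col19a1 in GnRH (−0.26) with the median split. Median-of-ratios scaling moved the median of all genes to −0.01 in vehicle and −0.02 in GnRH, so the sign of a log2 ratio nearer to 0 than that shift is not settled. No paired analysis was possible because there was a single library of each kind. Depth, at a median of 524.5 to 593 UMIs of the analysed genes per cell, limits genes of low count most.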
